A study of Mus musculus with 4 samples.

Results

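The olfactory and vomeronasal receptor genes are the largest families of chemosensory genes in the mouse. The ATAC-seq peaks assigned to them were taken as every peak of the authors' deposited table whose gene symbol begins with Olfr or Or and a digit, with Vmn1r or with Vmn2r. The rule found 219 of 80881 peaks, at 122 genes. Of these, 142 peaks belonged to 81 odorant receptor genes, 55 to 27 genes of the V1R vomeronasal family and 22 to 14 genes of the V2R family. The rule uses gene names and no measured value.

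ATAC-seq measures open chromatin through a transposase that inserts adapters into accessible DNA. The cells were KPC cells, a lung adenocarcinoma line of a KP mouse tumour that carries Cas9, so both groups share the tumour's genotype, the Cas9 virus and a lentiviral CRISPR activation vector. In the group mA2 dRNA the vector's guide targeted Malat1, a nuclear long noncoding RNA, and in the group Con dRNA it targeted luciferase, which mouse cells lack. Each group had 2 libraries, described as biological replicates, from 1 cell line, so the cells of a lung tumour line stand in for no olfactory tissue. Levels are mean normalized reads of a group as the authors computed them, positions are those of mm10, and a peak is said to be called, to rise or to fall only if its adjusted p, from the authors' deposited table, was under 0.05. The columns of single libraries carry names that match no sample label and were not used, so no spread between libraries stands beside a mean. In bulk cells, a change in the share of cells with an open site and a change of openness per cell cannot be told apart.

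Odorant receptors are G protein-coupled receptors of the main olfactory epithelium, where each sensory neuron uses a single receptor gene and keeps the others silent. V1R and V2R receptors detect pheromones in the vomeronasal organ. The genes lie in large arrays of near copies, which in most cell types are packed in heterochromatin with repressive histone methylation. In olfactory neurons, the chosen gene is activated by distant enhancers bound by the homeodomain factor Lhx2, by Ebf factors and by their partner Ldb1.

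Receptor genes themselves were almost devoid of peaks. Of 1465 protein-coding receptor genes in RefSeq (GRCm38.p6, the assembly behind mm10), 13 had a peak over the gene body, 0.887%, against 14983 of 20431 other protein-coding genes, 73.3%. With 10 kb added to each side, the shares were 7.03% and 82.9%. Start windows, from 250 bases before to 50 bases after a RefSeq start, were available for 1267 receptor genes, and a single one of them held a peak, 0.0789% with an exact 95% Clopper-Pearson interval of 0.00200% to 0.439%. The same share was 55.9% of 16224 other coding genes, 77.6% of 331 Zfp zinc finger genes, another clustered family that is bound by heterochromatin proteins, and 12.1% of 33 genes of glutamate and GABA receptors, another neural group. The intervals cover counting error and treat genes as independent.

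**Figure D1:**
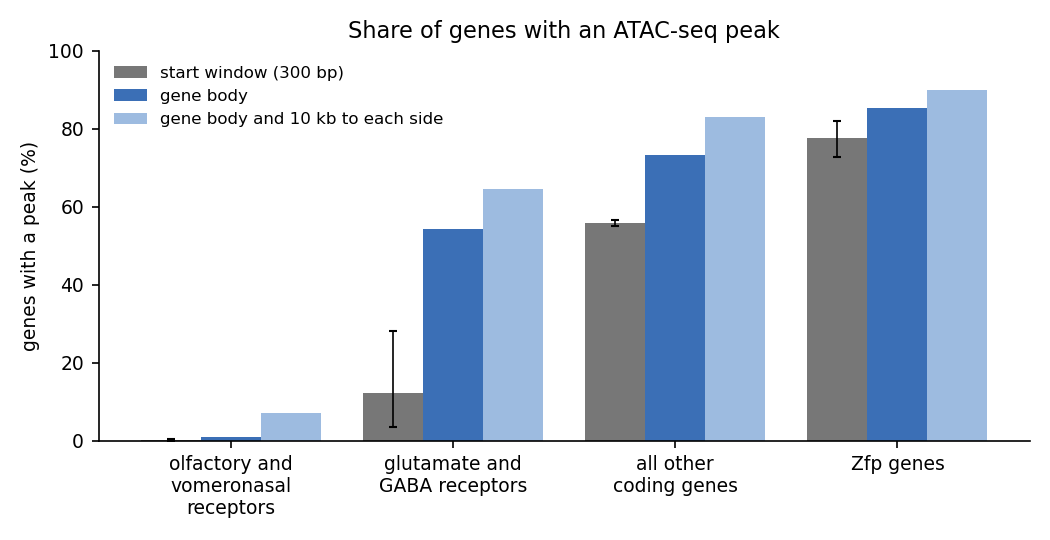
Share of protein-coding genes with a peak, in percent, for receptor genes and 3 other sets. Grey bars give start windows of 300 bp with exact 95% intervals, dark blue bars gene bodies and light blue bars gene bodies with 10 kb to each side. Gene bodies were not matched for length. The bars of the receptor genes lie at 0.0789%, 0.887% and 7.03%, the lowest of the 4 sets on each measure.

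Many RefSeq models of receptor genes may begin near the coding sequence, and the sources used here do not say how reads that match several near-identical receptor copies were handled. Gene bodies were not matched for length, and a longer body can overlap a peak more often. Receptor models can be short, as with Or5k1b, from 58760152 to 58761240. The start windows have 300 bp in every set. The part of any of these in the low shares was not tested.

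Those start windows are shown for the V2R genes on which the results turn. Vmn2r29 is the single receptor gene with a peak in a start window, and Vmn2r12 and Vmn2r111 carry the 2 called peaks. Sequences are those of RefSeq, build GRCm38.p6, read from 5′ to 3′ along the gene. The upstream start of Vmn2r29 lies at chr7:7278240-7278539 on the minus strand, and capitals mark the 131 bases under the peak. Its downstream start lies at chr7:7247279-7247578 on the minus strand, with the nearest peak 30.4 kb away. The start windows of Vmn2r12, at chr5:109097815-109098114, and of Vmn2r111, at chr17:22573224-22573523, both on the minus strand, have their nearest peaks 38.6 kb and 63.3 kb away. In these 3 windows capitals mark matches to the motifs described next, and the Vmn2r12 window has none.
Vmn2r29 upstream start: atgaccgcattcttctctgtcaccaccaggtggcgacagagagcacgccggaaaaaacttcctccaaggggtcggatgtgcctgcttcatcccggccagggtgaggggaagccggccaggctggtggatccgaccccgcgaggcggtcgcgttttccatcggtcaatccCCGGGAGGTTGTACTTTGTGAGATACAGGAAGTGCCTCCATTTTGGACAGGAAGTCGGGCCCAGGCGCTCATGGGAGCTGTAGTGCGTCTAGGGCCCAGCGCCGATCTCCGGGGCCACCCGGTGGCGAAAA
Vmn2r29 downstream start: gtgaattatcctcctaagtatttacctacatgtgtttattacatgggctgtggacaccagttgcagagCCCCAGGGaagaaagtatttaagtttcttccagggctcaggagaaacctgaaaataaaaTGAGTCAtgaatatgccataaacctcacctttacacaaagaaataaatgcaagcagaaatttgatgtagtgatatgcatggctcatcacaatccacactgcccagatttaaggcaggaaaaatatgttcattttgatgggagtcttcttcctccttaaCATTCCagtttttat
Vmn2r12 start: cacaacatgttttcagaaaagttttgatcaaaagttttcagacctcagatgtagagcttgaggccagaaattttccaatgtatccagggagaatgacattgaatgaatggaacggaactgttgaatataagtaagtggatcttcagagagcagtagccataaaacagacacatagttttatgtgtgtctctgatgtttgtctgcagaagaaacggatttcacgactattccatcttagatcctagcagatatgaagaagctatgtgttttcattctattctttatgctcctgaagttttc
Vmn2r111 start: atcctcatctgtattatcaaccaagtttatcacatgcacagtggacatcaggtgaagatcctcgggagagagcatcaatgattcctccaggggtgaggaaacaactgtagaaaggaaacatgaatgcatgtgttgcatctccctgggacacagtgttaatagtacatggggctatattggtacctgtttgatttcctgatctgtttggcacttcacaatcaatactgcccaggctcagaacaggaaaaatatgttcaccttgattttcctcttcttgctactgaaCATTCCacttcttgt

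The open Vmn2r29 window differs in composition from the others. It has 62.3% G and C, against 38.3% in the downstream window of the same gene, 37.0% for Vmn2r12 and 42.7% for Vmn2r111. The median was 35.7% over 1272 windows of receptor genes and 52.7% over 32851 windows of all genes. Outside the bases under the peak, the open window holds a match to a core of the CTCF motif at bases 23 to 34. The downstream window of Vmn2r29 holds an Ebf core CCCNNGGG at bases 69 to 76, an AP-1 site TGANTCA at bases 128 to 134 and, on the other strand, the TEAD site GGAATG at bases 286 to 291. The Vmn2r111 window holds GGAATG at the same place on the other strand.

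Over all receptor windows, searched on both strands, the homeodomain core TAATTA was present in 16.6% against 5.29% of all windows, and the AP-1 site in 15.9% against 7.81%. The Ebf core was present in 4.17% against 13.7%, the CTCF core in 0.314% against 2.43%, and the TEAD site in 14.5% against 14.7%. Each motif was counted apart from the others, whether or not matches overlapped. A richness in A and T goes with these shares, and its part in them was not tested. The peaks themselves could not be searched, since no genome sequence was used here.

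Most of the 219 peaks lay near receptor genes and not over them. Of them 20, or 9.13%, overlapped a RefSeq receptor gene, 16 of these a protein-coding one. Distal intergenic sequence held 141 peaks, 64.4% against 33.3% of all peaks, and promoters 14, 6.39% against 16.8%. The median distance from the assigned start site was 11.6 kb, and 41 peaks lay more than 50 kb away. The median distance to the nearest protein-coding gene that is no receptor was 47.1 kb. Of the peaks, 19 lay inside such a gene and 41 lay closer to one than to the start site of their receptor.

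**Figure D2:**
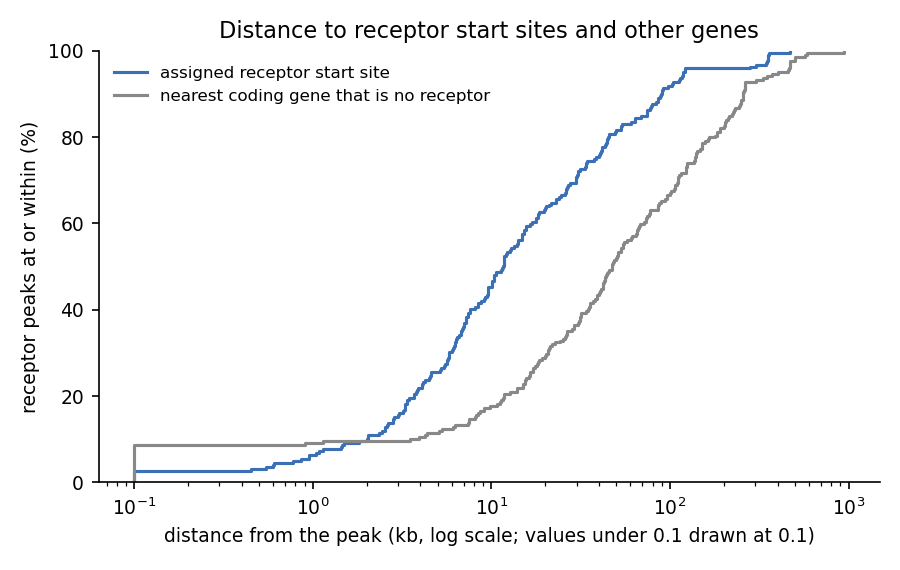
Cumulative share of the 219 receptor peaks, in percent, by distance in kb on a log axis. The blue line gives the assigned receptor start site, with a median of 11.6 kb, and the grey line the nearest protein-coding gene that is no receptor, with a median of 47.1 kb.

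Or1d2, an odorant receptor gene on chromosome 11, had the most peaks, 12, and shows how the assignment works. Of these, 9 lay in introns of Rap1gap2, which encodes a GTPase-activating protein for Rap1, between 37.5 and 121 kb from the receptor's start site. The 3 others lay closer, the nearest at 6.98 kb. In 8 of the 12 peaks the mean was lower with the Malat1 guide, with differences from -0.65 to 0.70 on the log2 scale.

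Dense arrays of receptor genes held few peaks. RefSeq has 62 arrays of at least 5 coding receptor genes with gaps of at most 100 kb, 1265 genes over 33.9 Mb. They held 101 peaks, 2.98 per Mb, against 31.9 per Mb in the rest of the sequence between the first and last peak of each chromosome, a 10.7-fold lower density. No peak lay in 38 of the arrays. The largest array, 216 genes over 4.82 Mb of chromosome 2, held 5. Of the 219 peaks, 78 lay in such an array. They had a median of 47.9 mean reads, and the 141 outside had 46.8.

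The open sites were weaker than the average peak. Their median level was 47.7 mean reads with quartiles of 26.1 and 105, against 73.1 with quartiles of 35.9 and 186 over all peaks. Levels ran from 9.17 to 753 reads. By class, receptor medians against all peaks were 41.6 and 58.0 in distal intergenic sequence and 34.2 and 272 in promoters. They were also lower in exons (43.8 and 63.9) and 5′ UTRs (74.4 and 192). In introns (90.3 and 59.5) and 3′ UTRs (83.1 and 61.2) the receptor peaks had the higher median, as did the 1 peak classed as downstream (114 and 73.1). Odorant receptor peaks had a median of 53.0 reads, V1R peaks 38.7 and V2R peaks 34.0.

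The strongest receptor peak lay 8.05 kb upstream of Or10p22, an odorant receptor gene, and held 694 reads under the Malat1 guide against 812 in luciferase controls. Next came a peak 7.19 kb upstream of Vmn1r40, with 606 and 749 reads. Both means were lower under the Malat1 guide and neither peak was called (adjusted p 0.584 and 0.282, from the authors' deposited table). The other 8 of the strongest 10 peaks belonged to Vmn1r60, Or4d11, Or9e1, Vmn1r58, Or1d2 with 2 peaks, Vmn1r43 and Or2aa1. In 9 of the 10 the mean was lower with the Malat1 guide, with differences from -0.62 to 0.01 on the log2 scale. The exception was Or9e1, with 442 and 438 reads, whose difference turned negative under each of 4 ways of centring.

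With the Malat1 guide 1 receptor peak rose and 1 fell. That is 0.913% of the 219, with an exact 95% interval of 0.111% to 3.26%, which holds the 2.73% called among all peaks. By direction, 2.23% of all peaks rose and 0.507% fell. Both called peaks belonged to V2R genes, in intergenic sequence far from the gene, and the 142 odorant receptor and 55 V1R peaks had 0 calls. Counting every peak whose unadjusted p, from the authors' deposited table, was below 0.05, odorant receptor peaks had 10 higher and 4 lower means, 7.04% and 2.82%, and V1R peaks 3 and 2, 5.45% and 3.64%, against 8.86% and 2.85% of all peaks.

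The peak that rose lies 38.8 kb upstream of Vmn2r12, a V2R gene on chromosome 5 from 109085849 to 109097864. It spans 109136727 to 109137127, and its mean was 68.9 reads under the Malat1 guide against 18.05 in luciferase controls. The rise was 3.82-fold (adjusted p 0.0125, from the authors' deposited table). It was the sole receptor peak on its chromosome. Within 500 kb lay 17 other peaks, none called, 8 of them higher under the Malat1 guide, and the nearest was 378 kb away with 49.3 and 54.8 reads. Their smallest adjusted p was 0.727, from the authors' deposited table, and none had an unadjusted p under 0.05. The call had an adjusted p between 0.0135 and 0.0255 under centring.

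The peak that fell lies 63.5 kb downstream of the start site of Vmn2r111, a V2R gene on chromosome 17 from 22547941 to 22573273, and so past the end of the gene. It spans 22509563 to 22509963, and its mean was 101 reads under the Malat1 guide against 202 in luciferase controls. The fall was 2.01-fold (adjusted p 0.0218, from the authors' deposited table). Of 11 other peaks within 500 kb none was called, 4 were higher under the Malat1 guide, and the smallest adjusted p was 0.675, from the authors' deposited table. The nearest was 85.6 kb away, assigned to Zfp946, with 204 and 188 reads. Under centring the call had an adjusted p between 0.0101 and 0.0228. No per-library value shows whether the libraries of the groups overlap at either peak.

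Further receptor peaks came near the threshold without being called. An intergenic peak 4.62 kb from Or5k1b held 40.8 reads under the Malat1 guide against 11.8 in luciferase controls (adjusted p 0.0760, from the authors' deposited table). A peak 21.5 kb upstream of Or8d1b held 30.6 and 6.69 reads, the largest receptor difference at 2.19 on the log2 scale (adjusted p 0.0766, from the authors' deposited table). A peak 3.37 kb upstream of Vmn1r229 held 58.0 and 19.5 reads (adjusted p 0.0777, from the authors' deposited table). Their means over both groups were 26.3, 18.7 and 38.8 reads, below the 47.7 of the median receptor peak. Peaks of Vmn1r42, Or2w25, Or8g36, Or9k7, Vmn1r39, Or4x13 and Or5au1 complete the 10 uncalled peaks with the smallest p and a higher mean. Their differences lay between 0.90 and 1.69, and of the 10 peaks 8 were intergenic.

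On the lower side, the peak closest to the threshold lay 1.49 kb from the start site of Or2y10, in sequence the authors annotated as a 3′ UTR, and held 53.4 reads under the Malat1 guide against 121 in luciferase controls (adjusted p 0.0580, from the authors' deposited table). A Vmn1r43 peak held 301 and 463 reads (adjusted p 0.0659, from the authors' deposited table), and an Or13e8 peak 203 and 346 (adjusted p 0.0664, from the authors' deposited table). Or13e8 and Or2y10 were called lower under all 4 centrings and Vmn1r43 under 3 of them, with 10 Mb windows as the exception. Centring on all peaks by construction moves every difference downward by their median of 0.09. The Or13e8 peak lay 6.60 kb from its assigned start site and 1.14 kb from Tmem8b, a protein-coding gene that is no receptor. The means over both groups were 87.2 reads for Or2y10, 382 for Vmn1r43 and 275 for Or13e8. Peaks of Vmn1r40, Or10p21, Or2i1, Vmn1r3, Or1d2, Vmn1r223 and Vmn1r58 complete the lower 10. Their differences lay between -1.20 and -0.31.

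**Figure D3:**
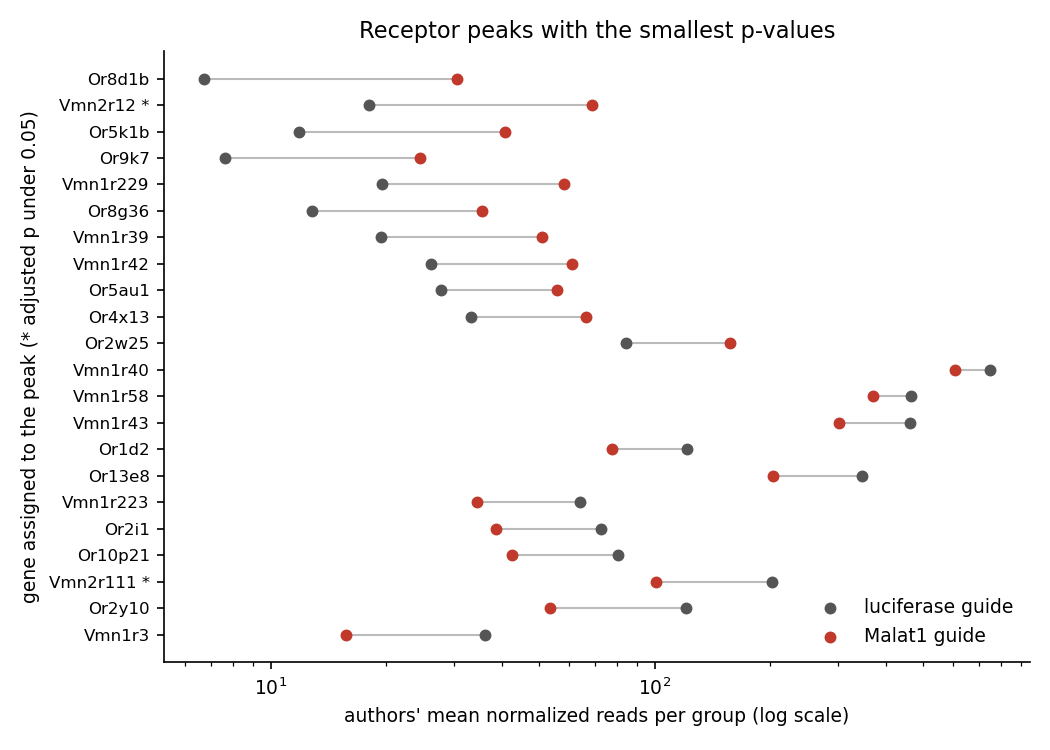
The authors' mean normalized reads with the luciferase guide (grey) and the Malat1 guide (red), on a log axis, for the 2 called peaks (marked with an asterisk) and the 10 uncalled peaks per direction with the smallest p. Luciferase levels run from 6.69 reads for Or8d1b to 84.4 for Or2w25 among the uncalled peaks that are higher under the Malat1 guide, and from 36.2 for Vmn1r3 to 749 for Vmn1r40 among those that are lower.

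The receptor peaks were split about evenly in direction, while most other peaks leaned upward. Their median difference was -0.03 on the log2 scale and 99 of 219, 45.2%, were higher under the Malat1 guide. Over all peaks the median was 0.09 and the share 60.8%, and over all distal intergenic peaks 0.10 and 59.3%. The quartiles of the receptor differences were -0.32 and 0.28, against -0.15 and 0.37 over all peaks. Counting every peak whose unadjusted p, from the authors' deposited table, was below 0.05, 14 receptor peaks had the higher mean, 6.39% against 8.86% of all peaks, and 7 the lower, 3.20% against 2.85%. These shares are descriptions, and no test of the list was made.

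The median of the receptor peaks was below that of the other peaks in each of 6 bins of mean reads. From 20 to 40 reads, 61 receptor peaks had a median of -0.05 and 19772 other peaks 0.13. From 40 to 80 reads the medians were 0.05 and 0.12. Above 320 reads they were -0.06 over 14 receptor peaks and 0.07 over the others. The widest gap was at up to 20 reads, with -0.30 over 34 receptor peaks and 0.06 over 3659 others. The bins were not redone without the 22 peaks at chromosome starts described below, whose median level was 21.0 reads.

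**Figure D4:**
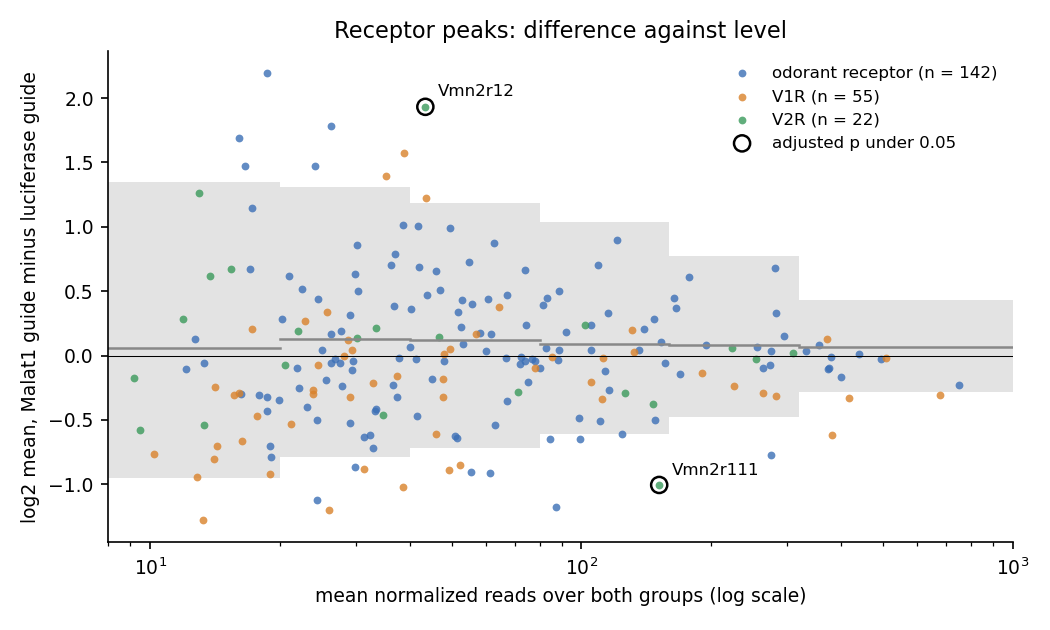
Difference of the log2 group means, Malat1 guide minus luciferase guide, against mean normalized reads on a log axis for each receptor peak, by family. Grey boxes span the 5th to 95th percentile of all other peaks in 6 bins of reads, with their median as a line, and black circles mark the called peaks of Vmn2r12 and Vmn2r111.

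By family, odorant receptor peaks had a median difference of 0.02, with 72 of 142 higher with the Malat1 guide, and V2R peaks 0.04, with 12 of 22. V1R peaks had a median of -0.24, with 15 of 55 higher. With differences centred, the odorant receptor median turned negative, between -0.09 and -0.07, the V2R median was negative under 3 of 4 centrings, and the V1R median lay between -0.34 and -0.26. A downward move follows from subtracting an upward median, 0.09 over all peaks. Whether the families differ was not tested. The 6 peaks of class I odorant receptors, the family members most like those of fish, had a median of 0.09, which turned negative under 3 of 4 centrings. None of the 6 was called, beside 2.73% of all peaks.

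Receptor peaks at the starts of chromosomes all had the lower mean. Sequence on the mouse autosomes starts near 3 Mb, after the centromere, and in these data the first autosomal peak starts at 3001220. Below 3.5 Mb lay 22 receptor peaks, on chromosomes 4, 16 and 18, and all 22 were lower under the Malat1 guide, with a median of -0.48 and a range from -1.28 to -0.01. None was above 0 under any of the 4 centrings, where the medians ran from -0.70 to -0.58. None of the 22 was called, with an exact 95% upper limit of 15.4%, beside 1.67% of other genes' peaks below 3.5 Mb and 2.73% of all peaks. The median level of the 22 was 21.0 reads. They belonged to 4 genes, Vmn1r2 with 9 peaks, Or1f19 with 7, Vmn1r238 with 4 and Vmn1r3 with 2, and 0 of them overlapped a receptor gene.

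Among the 9 Vmn1r2 peaks, 86.1 to 121 kb from the start site, the strongest held 36.4 reads under the Malat1 guide against 55.6 in luciferase controls. The strongest Or1f19 peak there, 351 kb from the start site, held 34.9 and 48.3. The eighth Or1f19 peak, 40.5 kb from the start site and above 3.5 Mb, went the other way, with 68.5 and 41.5 reads. Peaks of other genes below 3.5 Mb had a median of -0.03 over 299 peaks, and below 3.25 Mb, the end of the last of the 22 rounded up, -0.19 over 110, of which 35 had the higher mean. These other peaks, not matched to the 22 by chromosome, stood at a median of 75.1 reads below 3.5 Mb. Without the 22, the receptor peaks had a median of 0.01, with 99 of 197 higher, and the V1R peaks -0.15, with 15 of 40 higher. The limit of 3.5 Mb was chosen after these values were seen.

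**Figure D5:**
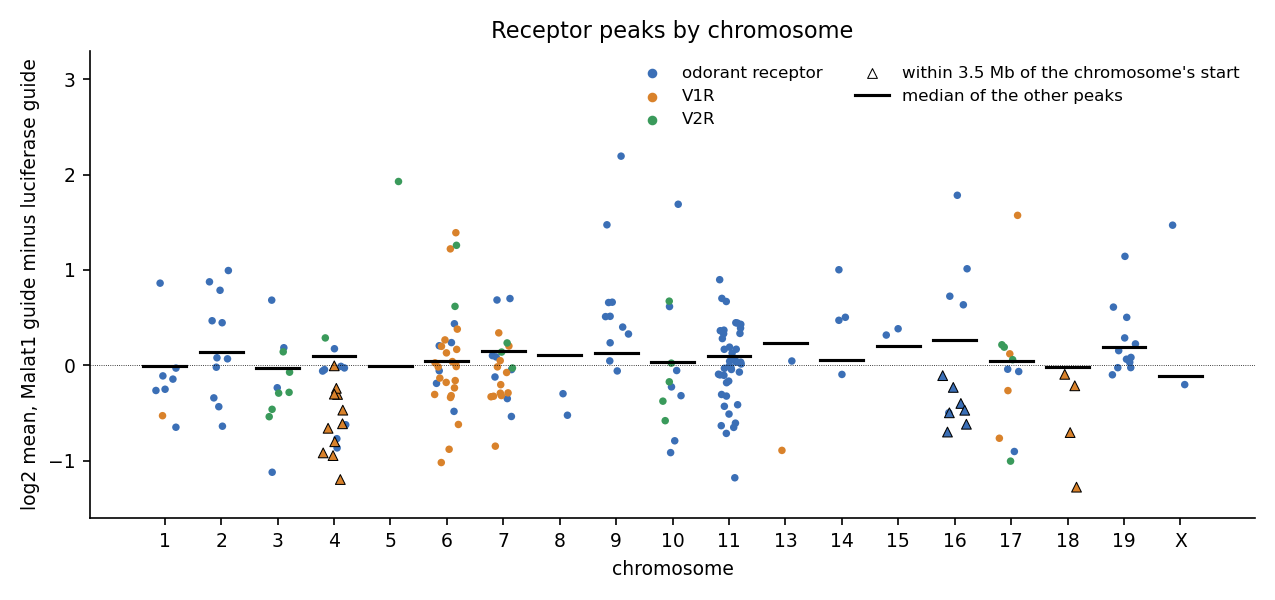
Difference of the log2 group means, Malat1 guide minus luciferase guide, of each receptor peak by chromosome, coloured by family, with black bars for the median of the other peaks of the chromosome. Triangles mark the 22 peaks below 3.5 Mb, which all lie below 0.

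Receptor genes with an assigned peak, joined when within 1 Mb of the next such gene, made 53 clusters. Receptor genes without a peak were left out, so a cluster can hold fewer genes than the genome has there. Of the clusters, 16 held at least 5 peaks, 149 in all. Their median difference was above 0 in 7 and below 0 in 9. None of the 149 receptor peaks in these 16 was called, beside 2.73% of all peaks. The cluster with the most peaks, 20, holds 8 V1R genes with peaks, from Vmn1r40 to Vmn1r53 on chromosome 6 between 89711261 and 90223317. The dense array there has 15 coding receptor genes in RefSeq. Of the 20 peaks of the cluster, 8 were higher under the Malat1 guide, with a median of -0.08 and a range from -1.02 to 1.22.

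The second, with 16 peaks of Or1a1, Or1d2 and Or1e1 on chromosome 11, had 5 higher means and a median of -0.06. A cluster on chromosome 9, between 37803889 and 39549931, has 10 odorant receptor genes with peaks, of the Or8 and Or10 subfamilies. The dense array there has 95 coding receptor genes in RefSeq. In this cluster, 10 of 11 peaks had the higher mean, with a median of 0.51. In the rest of chromosome 9 the median was 0.13. Under centring, 9 of the 11 were higher and the medians lay between 0.37 and 0.42. A cluster of V1R, V2R and odorant receptor genes on chromosome 7, from 5194916 to 7312211, went the other way, with 2 of 11 higher and a median of -0.29, or between -0.44 and -0.38 under centring. The 32 peaks of other genes inside that same span had a median of 0.21, and 27 of them were higher. Of these 32, 7 rose by the authors' adjusted p while 0 fell, beside 2.23% and 0.507% of all peaks.

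Peaks within 1 kb of an assigned start site numbered 14, at 12 genes, and none was called, beside 1.42% of all promoter peaks. The exact 95% upper limit on the share called was 23.2%, so so few peaks say little about it. The strongest, assigned to Vmn2r57, held 252 reads under the Malat1 guide against 257 in luciferase controls. The authors' annotation sets these start sites, and RefSeq ends Vmn2r57 at 41448641, short of this peak at 41499257, which lies inside AW146154. The peak in the Vmn2r29 window, from 7277970 to 7278370, held 110 and 93.8 reads (adjusted p 0.952, from the authors' deposited table) and lay 3.94 kb from Clcn4, a chloride transporter gene. Or10aa1 had 76.2 and 77.7 reads. The largest differences were at Or2i1, with 38.7 and 72.4 reads 0.609 kb from the start site (adjusted p 0.424, from the authors' deposited table), and Vmn1r46, with 22.02 and 40.6. Of the other start site peaks, those of Or5m3b held 46.9 against 27.2 and 78.1 against 56.5 reads, and those of Or2y7, Vmn2r30, Vmn1r41 and Vmn1r61 at most 65.2 reads in either group. RefSeq also ends Vmn2r30 at 7337493, short of its peak at 7374513. It ends Or2y7 at 52157907, short of its peaks at 52167213 and 52168025.

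For the genes that act with these receptors, calls stand beside the 2.73% of all peaks and medians beside their 0.09. Olfactory transduction genes, from the G protein Gnal and the adenylate cyclase Adcy3 to the channel Cnga2, had peaks at 16 of 16 genes, 64 in all, with 0 called higher and 2 lower, 3.13% against the 2.73% of all peaks, and a median of 0.13. Both lower calls were at Cnga3, a cone photoreceptor channel subunit, with the leading intronic peak at 120 against 246 reads (adjusted p 0.00591, from the authors' deposited table). An intronic peak of Ric8b, a chaperone of the olfactory G protein, held 157 and 74.5 reads and was not called (adjusted p 0.0520, from the authors' deposited table). Omp, the marker of mature olfactory neurons, had 238 and 240 reads at its start site and 0 calls among 5 peaks.

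Vomeronasal transduction had 0 calls among 29 peaks at 5 of 6 genes, with 24 higher means and a median of 0.13. Its leading peaks were at the channel gene Ano1, with 49.2 and 23.4 reads, and at Gnai2, the G protein of V1R neurons, with 131 and 78.1 (adjusted p 0.301 and 0.420, from the authors' deposited table). Trpc2, the channel of vomeronasal neurons, had 2 peaks of at most 61.4 reads in a group. Chaperones that bring receptors to the membrane had 0 calls among 21 peaks, with an intronic Rtp1 peak at 196 and 99.9 reads (adjusted p 0.0975, from the authors' deposited table) and a start site peak of Rtp4 at 73.6 and 46.6.

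Regulators of receptor choice had 0 calls among 59 peaks at 13 of 15 genes, with a median of 0.08. The 7 peaks of Lhx2 had a median difference of 0.11, which centring moved to between -0.03 and 0.02, and its start site held 51.0 and 30.8 reads. The leading peaks were at Bcl11b, a zinc finger factor, with 29.5 and 78.2 reads, and at Kdm1a, a histone demethylase, with 74.5 and 46.9 (adjusted p 0.147 and 0.553, from the authors' deposited table). Genes of heterochromatin and the nuclear lamina had 0 calls among 102 peaks at 19 of 20 genes and a median of 0.01. Intergenic peaks of Cbx3, a heterochromatin protein, and Kmt5b, a histone methyltransferase, led them with 69.0 against 28.7 and 552 against 751 reads (adjusted p 0.146 and 0.149, from the authors' deposited table). Counting every peak whose unadjusted p, from the authors' deposited table, was below 0.05, the lists with 0 calls had 2 and 0 (vomeronasal transduction), 1 and 0 (chaperones), 0 and 2 (regulators) and 3 and 3 (heterochromatin) higher and lower peaks. The shares over all peaks were 8.86% and 2.85%, and the exact 95% upper limits on the share called, 11.9%, 16.1%, 6.06% and 3.55% in the same order, all lie above 2.73%.

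Other chemosensory receptors, of trace amines, taste and the Ms4a and Gucy2d kinds, differed from the olfactory and vomeronasal ones in their calls, a difference that was not tested. Of their 32 peaks 3 were called higher and 2 lower, 15.6% against 2.73% of all peaks. The 3 higher calls were all at Tas2r119, a bitter taste receptor gene, and share that locus. The leading one lay 174 kb upstream and rose 3.54-fold from 18.8 to 66.5 reads (adjusted p 0.00807, from the authors' deposited table). The lower calls were at the neighbouring trace amine receptor genes Taar2, where a peak 6.72 kb upstream fell from 239 to 129 reads, and Taar5, named after its values were seen (adjusted p 0.0290 and 0.0376, from the authors' deposited table).

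Against the other sets, Zfp genes had 10 peaks called higher and 6 lower among 1040, 1.54%, with a median difference of 0.05 and a median level of 110 reads. Glutamate and GABA receptor genes had 17 higher and 2 lower among 125, 15.2%, with a median of 0.14 and 51.5 reads, a level close to the 47.7 of the olfactory and vomeronasal receptors. Whether these shares differ from that of the receptor peaks was not tested. The lung epithelium markers Nkx2-1, Sftpc, Epcam and Krt8 had 20 peaks, of which 12 were higher under the Malat1 guide and 1 was called, 5% against 2.73% of all peaks. The called peak was at Krt8, with 208 against 83.6 reads. The 3 peaks of Nkx2-1 had a median difference of -0.58, with 22.2 against 47.7 reads at the leading one, and the single Sftpc peak -0.13, none of them called.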

How the data were processed

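The submitters' processing notes name mm10, Bowtie2 and MACS2, DiffBind and ChIPseeker, besides FastQC, Picard and deepTools, as what the authors used. Not given in the sources used here are versions, the library normalization, the test, the treatment of duplicate and multiply mapped reads and any shift of read ends. The deposited table gives per peak the log2 of the authors' mean normalized reads in each group and over both, per the file headers, with a log2 fold change, p-value and adjusted p-value by the authors, and the signed distance in bp to the assigned start site as another deposited column. The adjusted p matched Benjamini-Hochberg over all peaks within 7.40e-06. Its group names, dmA12 and dLuc, were taken as mA2 and Con because the series has a single contrast. A further 4 columns of per-library values match no label and were not used, so depth per library and errors are unknown. Summed over peaks, the group means gave 13278600 reads under the Malat1 guide against 12465500 in luciferase controls.

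Differences printed here are Malat1 minus luciferase of the log2 group means, and folds are their ratios, because the authors' log2 fold was shrunken, with a median ratio to the difference of 0.767 over called peaks and 0.0958 over the 219 receptor peaks, whose authors' folds are thus far smaller than the differences printed here. Of 122 member genes 121 matched RefSeq GRCm38.p6 by gene ID, and 82 carry another symbol there. An overlap of 1 bp counted. For centring, each standard error was implied by the difference and the deposited p, the difference was shifted by the median of all peaks, of the chromosome, of the 10 Mb window or of the nearest 2001 peaks in level, and p was adjusted again. Centring on the median of all peaks was tested on simulated data, and centring by chromosome, by window and along abundance was not. The simulated p came from the normal model that the implied standard errors assume. The simulation therefore cannot show whether these errors hold for the authors' test. Python 3.11.15, pandas 2.3.3, scipy 1.17.1 and matplotlib 3.10.9 were used. The named peaks are the called ones, the 10 next per direction by p, the 10 strongest, the 12 strongest within 1 kb of a start site, the largest clusters and the leading peaks of 2 genes per list. The members and lists were chosen with earlier results of these data known.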

Additional observations from a re-analysis of the deposited data

How the results depend on the processing

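The counts of 1 receptor peak called higher and 1 lower rest on single peaks. At an adjusted p under 0.01 they were 0 and 0, and under 0.1 they were 4 and 4. The lower count was 4 with differences centred on the median of all peaks, by chromosome or along abundance, and 3 by 10 Mb window, while the higher count was 1 in each. Within 3 kb of a start site both counts were 0, and within 50 kb the lower was 0. Without chromosome 5 the higher count was 0, and without chromosome 17 the lower was 0. The median difference of -0.03 ran from -0.04 to -0.02 when any 1 chromosome was left out. All 4 centrings lowered it. It was -0.12 centred on the median of all peaks, -0.11 by chromosome, -0.09 by 10 Mb window and -0.13 along abundance. Centring on all peaks by construction subtracts their upward median of 0.09 from each difference, and centring along abundance that of peaks of like level. By chromosome and by window, the median of the surrounding peaks is subtracted, and peaks leaned upward over the series. The lowering is therefore not separate evidence about the receptor peaks. The alternatives for peaks within 50 kb of a start site (0.01), for 1 peak per gene (0.04) and for peaks from 3.5 Mb on (0.01, added after seeing the data) put the median above 0. The median level of 47.7 reads stayed within 1.5 times under the alternatives run. Of 40 named peaks, 35 were called under none of the 4 centrings. The planned fits per library, with and without single libraries, were not run. No paired analysis was possible because no column of single libraries could be assigned to a sample. Weak peaks limit precision, and no error per value was available.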
